A study of Homo sapiens with 8 samples.

Results

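The genes whose transcript levels separate MOLT-4 from DND-41 are described here. Both are established human cell lines grown from T-cell acute lymphoblastic leukaemia (T-ALL). A gene was taken as line-specific where all 4 libraries of one line lay above all 4 libraries of the other. By that rule 7466 genes separated the lines out of 15083 tested (49.5%), 3890 of them with MOLT-4 above (25.8%) and 3576 with DND-41 above (23.7%). Genes of chromosomes X and Y were left out. The tested genes are those that passed a filter on low counts, named the filter from here on.

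T-ALL arises from developing T cells of the thymus and falls into classes that differ in the transcription factor switched on in the leukaemic clone. TAL1 is a basic helix-loop-helix factor of blood stem cells and red cells that acts with LMO1 or LMO2, GATA3 and RUNX1 in a complex. TLX3 is a homeobox factor that is not made by normal T cells and is joined to T-cell control elements by translocation in another class of T-ALL. Genes of each class keep traces of the stage at which the thymocyte was arrested, such as the T-cell receptor genes it had rearranged and the surface proteins it carried.

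The study treated both lines with ACBI-1 or with DMSO, its vehicle, took total RNA after 24 h, and sequenced strand-specific libraries. ACBI-1 is a degrader that joins the bromodomains of SMARCA2, SMARCA4 and PBRM1 to the ubiquitin ligase VHL. It was given at 100 nM, and each of the 4 groups (DND-41 with DMSO, DND-41 with ACBI-1, MOLT-4 with DMSO, MOLT-4 with ACBI-1) held 2 libraries. The labels name no genetic change in either line and the same culture medium for both. Each line stands for 1 leukaemia, so a difference between them is one between 2 lines and not between 2 classes of the disease. Whether the libraries of a group came from separate cultures is not stated. The p-values therefore rest on a spread between libraries that may be technical. In DND-41 that spread also holds a difference between library numbers, given below.

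Library totals lay between 21308737 and 22067644 counts, and 21636 to 23243 genes had a count. Any pair of libraries from different lines differed by 144 to 202 times the counting noise (chi-square per degree of freedom, 16 pairs). In MOLT-4 the libraries of the same group differed by 1.52 and 2.65 and those of different treatment by 49.4 to 50.8. In DND-41 the grouping by name did not hold. There the libraries of the same number differed by 5.49 and 5.09, whereas those of the same named treatment differed by 68.3 and 64.6. The log2 fold changes of the authors' deposited table for DND-41 lay within 0.05 of number 2 over number 1 in 100% of 10389 genes. They lay within 0.05 of the named treatments in 10.3%. Which DND-41 libraries received ACBI-1 cannot be told from these files, so the treatment is given as the name of a library only. The comparison of lines uses all 4 libraries of each, whatever their treatment. Its groups follow the names, so the spread it uses within DND-41 holds the difference between numbers 1 and 2. The MOLT-4 columns carry the suffix "redo" in their names and the lines came in separate tables, so line and sequencing run cannot be told apart.

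Levels are given in CPM, the reads of a gene after all libraries are brought to a common TMM-adjusted size, with no scaling to gene length. CPM values compare libraries for 1 gene and not genes with each other. Where 4 values stand for a line, they are those of the libraries named DMSO 1 and 2 and then ACBI-1 1 and 2. A log2 fold change is MOLT-4 minus DND-41 over the 8 libraries, so positive values are higher in MOLT-4. A signed value in brackets after a gene name is that log2 fold change. In that comparison edgeR called 8099 of 15083 genes at an adjusted p under 0.05 (53.7%), 4096 higher in MOLT-4 (27.2%) and 4003 higher in DND-41 (26.5%). Since the genes were taken for the separation of the same libraries, their calls are a description. In bulk RNA, fewer cells reading a gene and less RNA per cell cannot be told apart. Of the 7466 separated genes 7083 were also called (94.9%, and 87.5% of all called), and 0 were called in the opposite direction. Differences of at least 2-fold were called in 1850 genes higher in MOLT-4 and 2077 higher in DND-41, and of at least 16-fold in 762 and 516. Tested against a change of 2-fold, 2662 genes passed (17.6%), 1339 higher in MOLT-4 (8.88%) and 1323 higher in DND-41 (8.77%). The counting gives no strand setting, so where a gene on the opposite strand had 10% or more of the reads of a named gene, its reads are given as a percent of them.

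**Figure D1:**
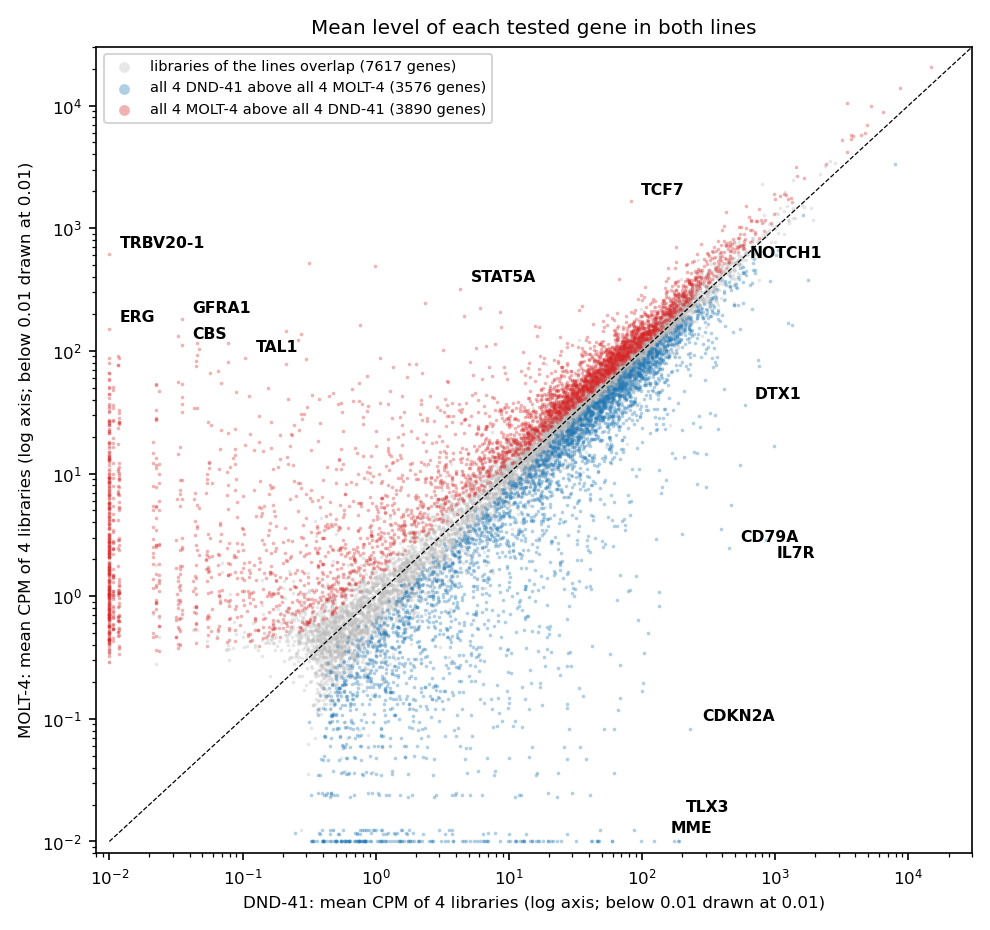
Mean CPM of each of the 15083 tested genes in the 4 DND-41 libraries (x axis) and the 4 MOLT-4 libraries (y axis), both on log axes with means under 0.01 drawn at 0.01. Red points are the 3890 genes with every MOLT-4 library above every DND-41 library and blue points the 3576 with the reverse. TLX3 and MME lie at the bottom edge, with no count in MOLT-4, and ERG and TRBV20-1 at the left edge, with no count in DND-41.

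Some genes were read in 1 line only. With at least 1 CPM in each library of one line and no count in any library of the other, 154 genes were found in MOLT-4, 134 of them protein-coding, and 73 in DND-41, 47 of them protein-coding. At a mean of at least 10 CPM there were 49 in MOLT-4 and 36 in DND-41. For such a gene the fold is a lower bound, set against 3 counts over the 4 libraries of the silent line. The sequences just before the start sites of 4 genes are shown. TLX3 and TAL1 are known drivers of T-ALL that were each read far above the other line in 1 of the lines, and MME and ERG were read in 1 line with no count in the other. Each is the 250 bases before the first start that RefSeq lists (build GRCh38.p14), 5′ to 3′ on the strand of the gene, with every CG dinucleotide in capitals. CG reads the same on both strands, and no other motif was searched, so matches cannot overlap. RefSeq lists 2 starts for TAL1, 4 for ERG, 1 for TLX3 and 4 for MME, and counts per gene do not say which was used.
TLX3, chr5:171308998-171309247 (+ strand): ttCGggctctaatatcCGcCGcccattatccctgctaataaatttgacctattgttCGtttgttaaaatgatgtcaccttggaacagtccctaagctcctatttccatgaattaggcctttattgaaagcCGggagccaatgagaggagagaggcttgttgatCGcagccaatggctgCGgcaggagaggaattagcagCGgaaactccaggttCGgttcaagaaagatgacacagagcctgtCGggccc
MME, chr3:155079422-155079671 (+ strand): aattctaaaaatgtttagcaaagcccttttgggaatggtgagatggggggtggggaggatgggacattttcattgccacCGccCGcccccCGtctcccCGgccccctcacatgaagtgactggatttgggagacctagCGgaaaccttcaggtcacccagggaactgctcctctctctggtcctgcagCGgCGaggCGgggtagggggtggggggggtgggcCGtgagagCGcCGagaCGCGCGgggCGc
TAL1, chr1:47232336-47232585 (- strand): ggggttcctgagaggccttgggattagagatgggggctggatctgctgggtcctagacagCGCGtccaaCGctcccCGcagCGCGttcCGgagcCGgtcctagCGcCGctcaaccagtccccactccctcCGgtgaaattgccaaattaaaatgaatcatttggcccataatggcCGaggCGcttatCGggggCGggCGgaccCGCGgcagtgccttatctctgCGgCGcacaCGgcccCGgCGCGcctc
ERG, chr21:38660668-38660917 (- strand): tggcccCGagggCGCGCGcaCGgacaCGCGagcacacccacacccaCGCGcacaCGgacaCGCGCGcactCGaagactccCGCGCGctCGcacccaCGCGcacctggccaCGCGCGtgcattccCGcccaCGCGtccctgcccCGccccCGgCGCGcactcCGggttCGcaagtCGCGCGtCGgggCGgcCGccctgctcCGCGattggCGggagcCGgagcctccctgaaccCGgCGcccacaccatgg
The stretch before TLX3 held 10 CG dinucleotides and that before MME 15. TAL1 had 24 and ERG 44. Of 35116 RefSeq stretches of the same length 93.9% held at least 1 CG, with a median of 11, and 0.769% held as many as ERG. Methylation was not measured, and the counts bear only on the transcripts.

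TLX3, a homeobox factor, was read in DND-41 alone. Its levels there were 248, 140.0, 234 and 119.9 CPM, and no MOLT-4 library had a count, which puts it at least 5085-fold higher in DND-41 (adjusted p = 0.000179, edgeR). Both DND-41 libraries numbered 1 were higher than both numbered 2. TLX1, a close homologue, had 0 counts in DND-41 and 1 in MOLT-4, and NKX2-5, another homeobox gene activated in some T-ALL, had the same. TAL1 was higher in MOLT-4. It stood at 115, 118, 57.3 and 56.6 CPM there and at 0.0468, 0, 0.328 and 0.0424 CPM in DND-41, where the 4 libraries together held 9 counts (log2 fold change 10.14, SE 0.34, adjusted p = 3.87e-06). LMO2, the bridging partner of TAL1, was at 7.43, 7.90, 2.19 and 1.85 CPM in MOLT-4 with no count in DND-41, at least 142-fold higher. LMO1 had no count in any of the 8 libraries.

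In the TAL1 complex list 12 of 15 members passed the filter, and 5 were higher in MOLT-4 and 3 in DND-41, beside 27.2% and 26.5% of all tested genes. The median log2 fold change was -0.03, against -0.01 over all tested genes. MYB (1.02), RUNX1 (1.24) and TCF3 (0.62) were higher in MOLT-4 by smaller amounts than TAL1 and LMO2. MYB ranged from 325 to 366 CPM in DND-41 and from 625 to 776 CPM in MOLT-4, and these ranges did not overlap. RUNX3, a paralogue of RUNX1 that is prominent in cytotoxic T cells, went the other way, with 89.7, 56.4, 97.1 and 54.1 CPM in DND-41 and 2.97, 3.18, 4.47 and 4.53 CPM in MOLT-4 (log2 fold change -4.32, SE 0.26, adjusted p = 3.63e-05). LYL1, a relative of TAL1, was low in both lines, 0.641 to 1.03 CPM in DND-41 and 0.0495 to 0.199 CPM in MOLT-4, and was higher in DND-41 (log2 fold change -2.69, SE 0.42, adjusted p = 0.00204). GATA3 was called higher in DND-41 (log2 fold change -0.84, SE 0.20, adjusted p = 0.0116), although its DND-41 values of 114, 72.6, 115 and 71.6 CPM overlapped the MOLT-4 values of 81.0, 77.2, 36.1 and 32.5 CPM. TCF12, LDB1 and STIL were not called, with log2 fold changes of -0.48, -0.14 and -0.06.

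Among genes that the TAL1 complex is known to bind and regulate, 14 of 14 members passed the filter, 7 were higher in MOLT-4 and 5 in DND-41, and the median log2 fold change was 0.43, beside 27.2% and 26.5% of all tested genes. ALDH1A2, a retinoic acid synthase, was at 289.7, 287, 138 and 137 CPM in MOLT-4 and at 0.0468 to 0.188 CPM in DND-41 (log2 fold change 10.95, SE 0.15, adjusted p = 2.96e-07). STAT5A, a signal transducer of cytokine receptors, was at 454, 440.3, 198 and 193 CPM in MOLT-4 and 6.6, 1.67, 7.65 and 1.27 CPM in DND-41 (log2 fold change 6.12, SE 0.63, adjusted p = 0.000355). ARID5B, which encodes a chromatin factor, was higher in MOLT-4 as well (2.57). TRIB2, a pseudokinase, was higher in DND-41, 159.5, 152, 173 and 147 CPM against 43.0, 46.1, 39.7 and 37.5 CPM (log2 fold change -1.93, SE 0.08, adjusted p = 7.31e-06). ETS2 (-0.83), CD226 (-1.17) and TNFAIP3 (-1.08) were higher in DND-41 too, and the gene on the opposite strand of TNFAIP3 had 42.1% of its reads. With the DMSO-named libraries alone 7 members were higher in MOLT-4 and 2 in DND-41, beside 17.9% and 17.4% of all genes. Tested against a 2-fold difference over the 8 libraries, 5 and 1 were called, beside 8.88% and 8.77% of all genes. ERG, described further on, is also a member and was higher in MOLT-4.

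**Figure D2:**
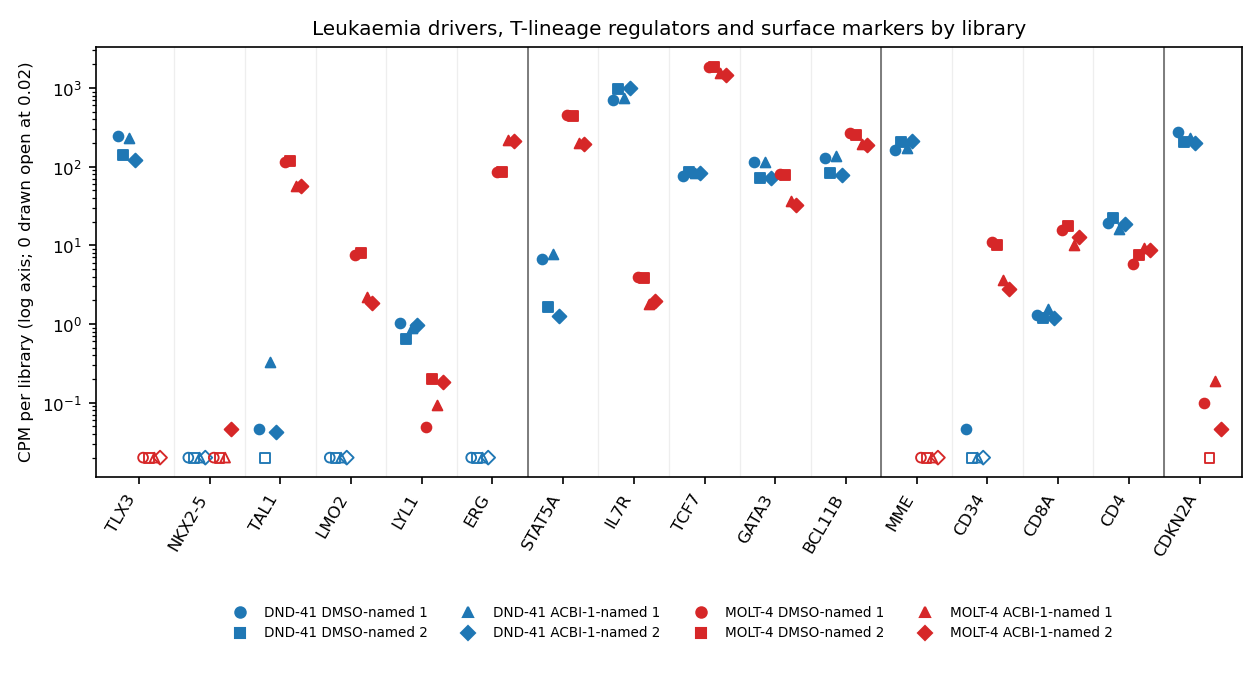
CPM of each of the 8 libraries on a log axis, with 0 drawn as an open symbol at 0.02, for leukaemia drivers, T-lineage regulators, surface markers and the tumour suppressor CDKN2A. TLX3, IL7R, MME and CDKN2A are higher in all blue DND-41 libraries. TAL1, LMO2, ERG, STAT5A, TCF7, CD34 and CD8A are higher in all red MOLT-4 libraries.

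Among homeobox genes of the HOX clusters, some were higher in MOLT-4 and others in DND-41. HOX factors set positional identity in the embryo, and HOXA genes are switched on in a class of T-ALL. In the list of homeobox leukaemia factors 16 of 32 members passed the filter, and the median log2 fold change was -0.32. Of the 16, 7 were higher in MOLT-4 and 8 in DND-41, beside 27.2% and 26.5% of all tested genes. The HOXB genes that passed the filter were all higher in MOLT-4. HOXB3 was at 7.43, 7.35, 9.35 and 9.19 CPM and HOXB4 at 12.5, 10.4, 11 and 11.3 CPM there, with 0 and 1 counts over the DND-41 libraries, and HOXB7 was at 1.63, 1.39, 2.70 and 4.57 CPM with 0. For HOXB7 that is at least 78.1-fold higher, while HOXB4 gave a ratio of 1012, 95% counting interval 181 to 40023. MEIS1, a partner of HOX proteins on DNA, was also read in MOLT-4 alone, at 5.50, 5.86, 4.37 and 5.64 CPM, at least 159-fold higher.

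HOXA3, HOXA5, HOXA6, HOXA7 and HOXA13 were higher in DND-41. HOXA5 was at 5.10, 5.98, 4.83 and 5.34 CPM in DND-41 and 0.0462 to 0.0993 CPM in MOLT-4 (log2 fold change -6.10, SE 0.25, adjusted p = 8.42e-06), and HOXA7 at 7.87, 9.86, 7.79 and 7.33 CPM against 0 to 0.198 CPM (log2 fold change -7.99, SE 0.28, adjusted p = 1.42e-05). HOXA3 had 2.34, 2.56, 2.63 and 3.01 CPM in DND-41 and no count in MOLT-4, at least 73.5-fold, and HOXA6 had 1.03 to 2.33 CPM with 1 count in MOLT-4. HOXA-AS3, which lies opposite these genes, had 55.7% of the reads of HOXA3, 59.1% of those of HOXA6 and 12.3% of those of HOXA7. The order was reversed for HOXA10, which had 0.554 to 0.844 CPM in MOLT-4 and no count in DND-41, at least 19.7-fold. HOXA9, the HOXA gene most often studied in leukaemia, was close to absent from both lines, with 0 and 4 counts.

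Among T-lineage regulators 34 of 37 members passed the filter, 11 were higher in MOLT-4 and 11 in DND-41, and the median log2 fold change was -0.08, beside shares of 27.2% and 26.5% of all tested genes. ERG, an ETS factor of blood stem cells, was at 86.5, 86.4, 218 and 215 CPM in MOLT-4 and had no count in DND-41, at least 4593-fold higher. Both MOLT-4 libraries named ACBI-1 exceeded both named DMSO. NFATC2, a factor downstream of calcium signals, was at 47.3, 49.7, 25.2 and 25.5 CPM in MOLT-4 with 3 counts in DND-41, a ratio of 1092, 95% counting interval 373 to 5297. TCF7, which encodes the T-cell commitment factor TCF1, was read in both lines and was higher in MOLT-4, 1871, 1834, 1533 and 1450.4 CPM against 76.8, 86.5, 81.9 and 83.4 CPM (log2 fold change 4.34, SE 0.08, adjusted p = 5.36e-07). Its opposite-strand neighbour SKP1 had 12.6% of its reads. ZBTB16, the PLZF factor of innate-like T cells, was read in MOLT-4 alone at 0.093 to 2.03 CPM. Higher in DND-41 were regulators including FOXO1, which keeps T cells at rest, PRDM1, a repressor of effector cells, ID2, an inhibitor of E proteins, and TBX21, the factor T-bet. FOXO1 was at 10.5, 18.0, 11.6 and 19.2 CPM and 0.347, 0.298, 0.791 and 0.647 CPM (log2 fold change -4.93, SE 0.30, adjusted p = 3.95e-05), PRDM1 differed by -5.03 and ID2 by -3.58 on the log2 scale. TBX21 was low, with 83 counts over the DND-41 libraries and 2 over those of MOLT-4. BCL11B, which fixes T-cell identity, was read in both lines and was higher in MOLT-4, 269.5, 253, 196 and 186 CPM against 128, 83.6, 135 and 78.1 CPM (log2 fold change 1.07, SE 0.20, adjusted p = 0.00493).

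Among thymocyte stage markers 36 of 41 members passed the filter, 15 were higher in MOLT-4 and 15 in DND-41, and the median log2 fold change was -0.13, beside the same shares of all tested genes. MME, the surface peptidase CD10, was at 162, 207, 174 and 212 CPM in DND-41 with no count in MOLT-4, at least 5284-fold. IL7R, the receptor for the survival cytokine interleukin 7, was at 713, 983, 746 and 989 CPM in DND-41 and 3.91, 3.87, 1.81 and 1.99 CPM in MOLT-4 (log2 fold change -8.30, SE 0.19, adjusted p = 1.25e-06). CD7 and CD38 were read in both lines and were higher in DND-41 (log2 fold changes -3.66 and -3.32). In DND-41 CD7 was at 1228, 252, 1251 and 214 CPM, with the libraries numbered 1 far above those numbered 2. CD37, a tetraspanin, was at 9.15 to 11.1 CPM in DND-41 and at most 0.297 CPM in MOLT-4. Members higher in MOLT-4 included CD34, a surface protein of blood progenitors. CD34 was at 11.1, 10.2, 3.63 and 2.82 CPM with 1 count in DND-41 (ratio 611, 95% counting interval 109 to 24192), and PTCRA, the pre-T-cell receptor chain, at 19.7, 18.4, 5.12 and 5.78 CPM with 2 counts (ratio 539, 95% counting interval 149 to 4460.4). FLT3, a progenitor receptor kinase, was at 1.02 to 2.53 CPM in MOLT-4 with 3 counts in DND-41, and CD9 at 6.69 to 11.4 CPM with 1. CD5 was higher in MOLT-4 (log2 fold change 4.19, SE 0.30, adjusted p = 7.58e-05).

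The coreceptors went opposite ways. CD8A was at 15.5, 17.5, 10.0 and 12.8 CPM in MOLT-4 and 1.31, 1.20, 1.55 and 1.19 CPM in DND-41 (log2 fold change 3.39, SE 0.16, adjusted p = 1.43e-05), and CD4 at 5.75, 7.45, 9.16 and 8.78 CPM and 19.2, 22.5, 16.3 and 18.7 CPM (log2 fold change -1.31, SE 0.13, adjusted p = 0.000252). The recombinase genes RAG1 (-2.20) and RAG2 (-1.5), which cut receptor genes, were higher in DND-41. RAG1 was at 1019.6, 2329.9, 1166 and 2476 CPM there and 365, 388, 371 and 392 CPM in MOLT-4. RAG1 lies on the opposite strand of RAG2 and had 1341% of its reads. DNTT, which adds bases at the joints, was higher in MOLT-4 (log2 fold change 2.69, SE 0.11, adjusted p = 8.5e-06). CD1A, a lipid-presenting protein of cortical thymocytes, did not pass the test (log2 fold change -0.01, adjusted p = 0.986). Its DND-41 values were 66.9, 119, 63.6 and 113 CPM, and the MOLT-4 values 163, 164, 50.2 and 49.4 CPM lay on either side of them.

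The lines read different segments of the T-cell receptor genes. A T cell builds the receptor from V segments that are joined to constant segments in the alpha, beta, gamma and delta loci, so a clone reads mostly the segments it joined. In MOLT-4 the beta segment TRBV20-1 held 97.9% of all 50916 counts on beta V segments. Its levels were 1083, 1096, 136 and 138 CPM, with no count in DND-41, at least 17847-fold. In DND-41 no beta segment stood out to the same extent, and TRBV6-5 led with 382 of 1877 counts (20.4%), at 3.51, 5.21, 3.99 and 4.24 CPM against 0.14 to 0.277 CPM (log2 fold change -4.34, SE 0.27, adjusted p = 3.84e-05). The delta locus was read in DND-41 only. TRDV1 was at 55.7, 64.2, 53.8 and 62.7 CPM and TRDC, the delta constant segment, at 98.0, 108, 91.9 and 95.7 CPM, with no count of either in MOLT-4, at least 1650.0-fold and 2745-fold. TRDV1 held 99.8% of the 5331 counts on delta V segments there. The delta genes lie inside the alpha locus and are lost when that locus is joined. Joining of the DNA was not measured, and its part in the delta difference was not tested.

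The alpha locus was low in both lines. TRAC, the alpha constant segment, was at 3.52, 2.88, 0.605 and 0.554 CPM in MOLT-4 and 0.375, 1.07, 0.235 and 0.381 CPM in DND-41 (log2 fold change 1.51, SE 0.36, adjusted p = 0.0132), and the libraries overlapped. Alpha V segments held 24 counts in MOLT-4, all on TRAV1-1, and 388 in DND-41, where TRAV22 led with 142. Gamma segments were higher in DND-41. TRGV5 was at 8.05, 4.36, 9.76 and 4.66 CPM with no count in MOLT-4, at least 184-fold, and TRGC2 at 30.8, 14.9, 31.3 and 11.9 CPM against 2.63, 2.68, 0.651 and 0.277 CPM (log2 fold change -4.31, SE 0.47, adjusted p = 0.000427). TRGV2, the leading gamma segment of MOLT-4, had 46 counts there and 91 in DND-41. TRBC2, the beta constant segment, was read in both lines, 988, 699, 852 and 623 CPM in DND-41 and 4099, 4058, 489.7 and 465 CPM in MOLT-4 (log2 fold change 0.82, SE 0.14, adjusted p = 0.00351). Its MOLT-4 libraries named DMSO lay above all of DND-41 and those named ACBI-1 below. TRBC1 had no count in any library, and since it is nearly identical to TRBC2, how the authors' counting split their reads is unknown.

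**Figure D3:**
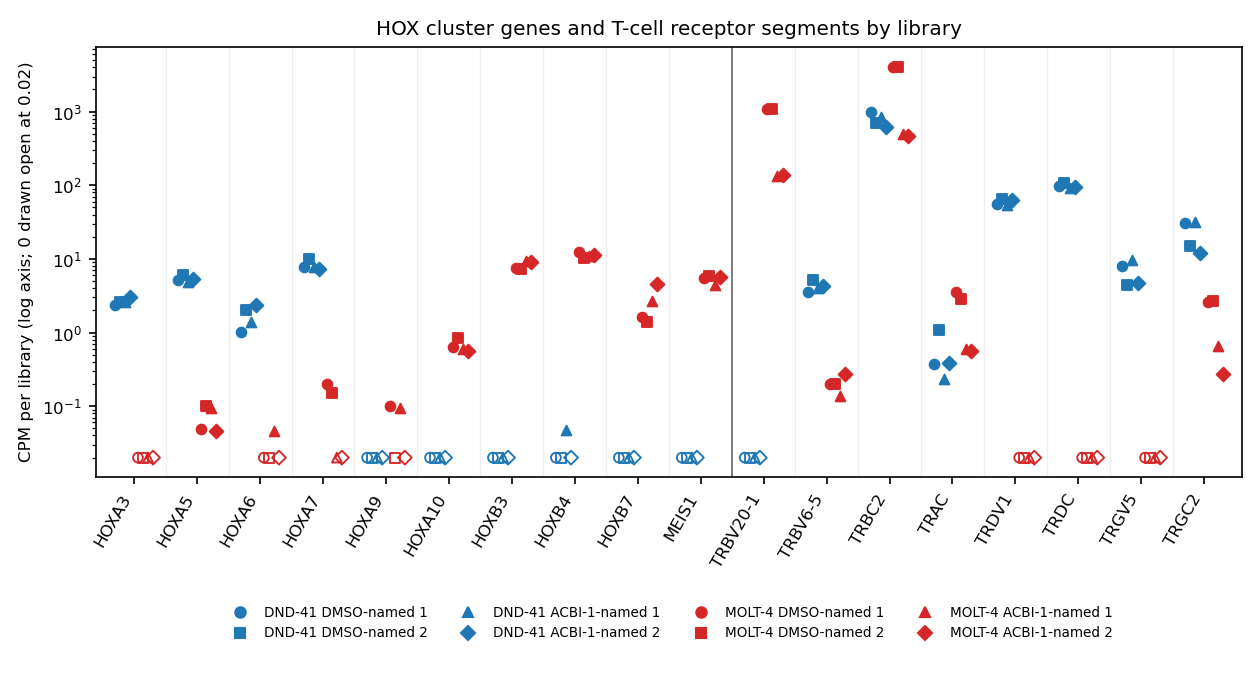
CPM of each of the 8 libraries on a log axis, with 0 drawn as an open symbol at 0.02, for HOX cluster genes with MEIS1 (left of the line) and T-cell receptor segments (right). HOXA3 to HOXA7 and the delta and gamma segments are high in blue DND-41 libraries, while HOXB genes, MEIS1 and TRBV20-1 are high in red MOLT-4 libraries.

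Genes of the receptor complex and its signalling were read in both lines. In that list 32 of 34 members passed the filter, and 11 were higher in MOLT-4 and 12 in DND-41, beside 27.2% and 26.5% of all tested genes. The median log2 fold change was 0.13, and the median was 0.00 when libraries were scaled by total counts. Over all tested genes these medians were -0.01 and -0.13. CD3E was not called, with 787, 1117, 764 and 1033 CPM in DND-41 and 787, 788, 809 and 724 CPM in MOLT-4 (log2 fold change -0.25, SE 0.14, adjusted p = 0.187). PDCD1, the checkpoint receptor PD-1, was at 22.3, 24.3, 5.35 and 4.30 CPM with no count in DND-41, at least 411-fold. PTPN6, the phosphatase SHP-1, was at 42.9, 44.9, 18.6 and 19.6 CPM against 1.92, 1.45, 2.02 and 1.19 CPM (log2 fold change 4.14, SE 0.19, adjusted p = 1.11e-05). The costimulatory receptor ICOS was higher in DND-41, 155, 125, 151 and 124 CPM against 10.3, 10.5, 4.05 and 2.77 CPM (log2 fold change -4.54, SE 0.16, adjusted p = 4.18e-06). SIT1, an adaptor that damps receptor signals, was higher in DND-41 as well (-4.32). SYK, a kinase that T cells largely replace by ZAP70, was low, with 36 counts in DND-41 and 2 in MOLT-4.

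NOTCH1 is the receptor most often mutated in T-ALL and drives a set of direct targets. In the NOTCH list 23 of 29 members passed the filter, and the median log2 fold change was -0.07. Of the 23, 7 were higher in MOLT-4 and 8 in DND-41, beside 27.2% and 26.5% of all tested genes. NOTCH1 itself was not called (log2 fold change -0.47, SE 0.30, adjusted p = 0.236). Its values were 661, 345, 792 and 344 CPM in DND-41 and 837, 835, 186 and 173 CPM in MOLT-4, so the MOLT-4 libraries named DMSO lay above and those named ACBI-1 below DND-41. NOTCH3, a receptor that NOTCH1 induces, was higher in all DND-41 libraries, 347, 283, 405 and 262 CPM against 61.2, 55.0, 5.16 and 4.25 CPM (log2 fold change -4.29, SE 0.18, adjusted p = 8.83e-06). DTX1, a ubiquitin ligase and direct target, was at 855, 308, 914 and 277 CPM and 70.4, 60.9, 7.49 and 6.33 CPM (log2 fold change -4.79, SE 0.52, adjusted p = 0.00045). HES1, the repressor target, was called higher in DND-41 (log2 fold change -3.01, SE 0.34, adjusted p = 0.000534), but its values overlapped, 76.9, 38.1, 73.2 and 36.1 CPM against 57.1, 55.5, 0.884 and 0.832 CPM. The coactivators MAML2 (-4.60) and MAML3 (-2.95) were higher in DND-41, and MGST2 on the opposite strand had 76.3% of the reads of MAML3. PTCRA, named above, NRARP (0.0993 to 1.21 CPM, no count in DND-41) and DLL3 (0.694 to 1.85 CPM, 2 counts in DND-41) were the members higher in MOLT-4 by the most.

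For cytokine and chemokine receptors 33 of 42 members passed the filter, 7 were higher in MOLT-4 and 16 in DND-41, and the median log2 fold change was -0.60, against shares of 27.2% and 26.5% and a median of -0.01 in all tested genes. The list also holds ligands of the tumour necrosis factor family. TNF was at 44.9, 15.5, 41.2 and 15.6 CPM in DND-41 and 0.446, 0.497, 0.14 and 0 CPM in MOLT-4 (log2 fold change -7.27, SE 0.70, adjusted p = 0.000259), and LTB, lymphotoxin beta, at 298, 233, 275 and 223 CPM and 16.8, 14.7, 0.651 and 0.37 CPM (log2 fold change -6.49, SE 0.18, adjusted p = 2.12e-06). LTA, its partner, differed by -4.71. Of the receptors, TNFRSF1B had 23.1, 2.73, 24.1 and 2.08 CPM in DND-41 and no count in MOLT-4, at least 347-fold. S1PR4, a sphingosine-phosphate receptor of lymphocytes, was at 79.7, 55.9, 81.7 and 53.5 CPM against 0.093 to 0.397 CPM (log2 fold change -7.92, SE 0.34, adjusted p = 9.69e-06). IL4R differed by -3.83 and the homing receptor CCR7 by -4.15. CCR9, which guides thymocytes and gut T cells, was higher in MOLT-4, 90.7, 91.5, 2.79 and 2.54 CPM against 1.73, 1.02, 1.60 and 0.805 CPM (log2 fold change 3.60, SE 0.24, adjusted p = 5.05e-05), and it was far lower in the MOLT-4 libraries named ACBI-1.

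Among adhesion and migration genes 28 of 32 members passed the filter, and the median log2 fold change was -0.56. Of the 28, 6 were higher in MOLT-4 and 15 in DND-41, beside 27.2% and 26.5% of all tested genes. PLXND1, a semaphorin receptor, was at 538, 511, 597 and 514 CPM in DND-41 and 17.1, 15.9, 6.84 and 6.61 CPM in MOLT-4 (log2 fold change -5.68, SE 0.09, adjusted p = 3.63e-07). ICAM1 (-4.48), SEMA7A (-3.30), the integrin chains ITGA1 (-3.12) and ITGB5 (-2.90), and the hyaluronan receptor CD44 (-2.58) were higher in DND-41. In MOLT-4 the integrin chain ITGAL (2.45) and CD47 (1.55), a signal that holds off phagocytes, were higher.

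**Figure D4:**
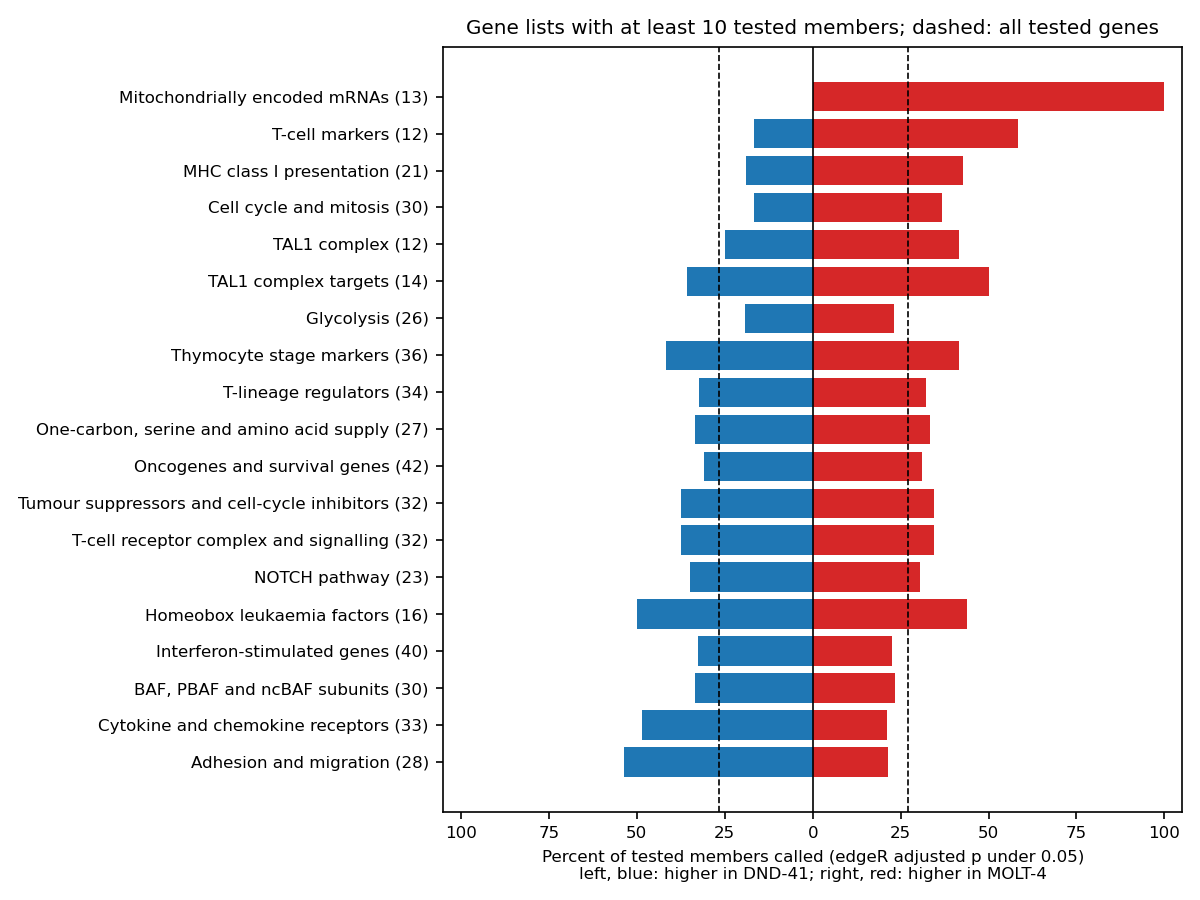
Share of the tested members of each gene list (number in brackets) that edgeR called higher in DND-41 (blue, left) or in MOLT-4 (red, right), for lists with at least 10 tested members. Dashed lines mark the shares of all tested genes, 26.5% and 27.2%. All 13 mitochondrially encoded mRNAs were higher in MOLT-4. Adhesion genes reach farthest to the left, followed by homeobox leukaemia factors and cytokine receptors.

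Among tumour suppressors and cell-cycle inhibitors 32 of 33 members passed the filter. Of the 32, 11 were higher in MOLT-4 and 12 in DND-41, beside 27.2% and 26.5% of all tested genes. The median log2 fold change was 0.08 (-0.05 when scaled by total counts), against -0.01 (-0.13) over all tested genes. CDKN2A, which encodes the cell-cycle inhibitors p16 and p14ARF and is a frequent deletion target in T-ALL, was at 279, 207, 234 and 198 CPM in DND-41. MOLT-4 held 7 counts of it over 4 libraries (log2 fold change -11.45, SE 0.33, adjusted p = 2.32e-06). Its neighbour CDKN2B was lower in MOLT-4 as well (log2 fold change -4.27, SE 0.47, adjusted p = 0.000447). MTAP, the next gene of that region, was read in both lines, 91.8, 61.4, 102 and 57.6 CPM and 109.7, 106, 74.3 and 72.3 CPM, and was not called (log2 fold change 0.19, SE 0.20, adjusted p = 0.475). TET2, which oxidises methylcytosine, was at 20.1, 18.1, 37.8 and 37.8 CPM in MOLT-4 with 1 count over the DND-41 libraries, a ratio of 2581, 95% counting interval 463 to 101990.5. CDKN1A, the cell-cycle inhibitor p21, was higher in DND-41 (-2.87). CDKN1C, an imprinted inhibitor, was read at 0.248 to 0.785 CPM in MOLT-4 with 1 count in DND-41.

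In the list of oncogenes and survival genes 42 of 44 members passed the filter, and the median log2 fold change was 0.15. Of the 42, 13 were higher in MOLT-4 and 13 in DND-41, beside 27.2% and 26.5% of all tested genes. MYC was not called, with 524, 176, 486 and 150.4 CPM in DND-41 and 549, 535, 337 and 329 CPM in MOLT-4 (log2 fold change 0.35, SE 0.45, adjusted p = 0.539). MYCN was read in MOLT-4 alone, 5.70, 4.57, 1.58 and 2.49 CPM, at least 106-fold. PIM1, a kinase induced by cytokines, was at 436, 188, 421 and 172 CPM in DND-41 and 15.1, 14.4, 14.1 and 14.5 CPM in MOLT-4 (log2 fold change -4.39, SE 0.40, adjusted p = 0.000213). The survival genes BCL2 (-2.43), BCL2L1 (-1.85) and MCL1 (-0.79) were all higher in DND-41. BCL2 had 139, 78.2, 155 and 83.5 CPM there and 23.3, 22.7, 18.9 and 20.0 CPM in MOLT-4. PIK3CD, the lymphocyte form of phosphatidylinositol 3-kinase, was higher in DND-41 (-4.11), and CLSTN1 across from it had 86.9% of its reads. MYCL was called higher in MOLT-4 (adjusted p = 0.0412, edgeR) from 35 counts there and 3 in DND-41, with overlapping libraries.

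Subunits of the BAF, PBAF and ncBAF remodelling complexes include the targets of ACBI-1. In that list, which also holds VHL, 30 of 31 members passed the filter, and the median log2 fold change was -0.03. Of the 30, 7 were higher in MOLT-4 and 10 in DND-41, beside 27.2% and 26.5% of all tested genes. Tested against a 2-fold change, 1 was higher in MOLT-4 and 2 in DND-41, beside 8.88% and 8.77% of all tested genes. SMARCA2, one of the exchangeable ATPases, was higher in DND-41, 85.4, 77.3, 93.6 and 82.4 CPM against 29.1, 27.1, 26.4 and 27.3 CPM (log2 fold change -1.62, SE 0.08, adjusted p = 1.35e-05). SMARCA4, the other ATPase, was higher in MOLT-4, 628, 607, 756 and 719 CPM against 416, 445, 450.4 and 440.2 CPM (log2 fold change 0.62, SE 0.06, adjusted p = 0.000246). PBRM1, the third target, was not called, 229, 238, 256 and 269.9 CPM against 232, 228, 247 and 249 CPM (log2 fold change -0.05, SE 0.05, adjusted p = 0.449). VHL was higher in DND-41 (119, 131, 123 and 137 CPM against 87.1, 88.5, 97.8 and 97.9 CPM, log2 fold change -0.46, SE 0.07, adjusted p = 0.00138). The largest differences were in DPF1, a subunit better known from neurons, at 7.15 to 9.75 CPM in MOLT-4 and 0.381 to 0.796 CPM in DND-41 (3.71), and GLTSCR1L, an ncBAF subunit higher in DND-41 (-2.20). BCL11A, the paralogue of BCL11B, was higher in DND-41 (-0.89), and BRD7 was higher in MOLT-4 (0.88), with ADCY7 on the opposite strand at 13.7% of its reads.

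Of class I antigen presentation genes 21 of 21 members passed the filter, and the median log2 fold change was 0.26. Of the 21, 9 were higher in MOLT-4 and 4 in DND-41, beside 27.2% and 26.5% of all tested genes. ERAP2, a peptidase that trims presented peptides, was at 229, 227, 237 and 241 CPM in MOLT-4 and 27.3, 39.9, 31.7 and 42.0 CPM in DND-41 (log2 fold change 2.73, SE 0.15, adjusted p = 2.49e-05). The chaperone CALR (1.33) and the peptide transporter TAP1 (0.92, TAPSAR1 opposite it at 10.6% of its reads) were higher in MOLT-4. Class II genes were nearly silent in both lines: 4 of 15 members passed the filter, 7 were at 0 in each line, and HLA-DRA was at 0 in both. Of 40 interferon-stimulated genes that passed the filter, 9 were higher in MOLT-4 and 13 in DND-41 (median -0.36), beside the same shares of all tested genes. IFITM3, a membrane protein that blocks virus entry, was at 29, 4.95, 27.7 and 5.04 CPM in DND-41 and 0.419 to 0.793 CPM in MOLT-4, while IFIT1 (2.94) and MX1 (1.86) were higher in MOLT-4.

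All 13 of 13 mitochondrially encoded mRNAs were higher in MOLT-4, beside 27.2% of all tested genes, with no overlap between the libraries of the lines. Their median log2 fold change was 0.63 (0.50 when scaled by total counts), against -0.01 (-0.13) over all tested genes. In the ACBI-1-named libraries alone 7 of the 13 were called higher in MOLT-4, beside 16.2% of all genes tested there. Over the 8 libraries 1 of 13 passed the test against a 2-fold difference, beside 8.88% of all tested genes. The 13 mRNAs encode subunits of the respiratory chain. MT-ND6 differed most, 1072, 984, 1089 and 995 CPM against 356, 458, 355 and 473 CPM (log2 fold change 1.33, SE 0.13, adjusted p = 0.000252). The next was MT-CO2, 10403, 9941, 10167 and 9089 CPM against 5136, 5732, 4683 and 5237 CPM (log2 fold change 0.93, SE 0.08, adjusted p = 0.000171). Of all counts, 8.86% to 9.67% fell on the mitochondrial genome in MOLT-4, and 5.89% to 6.84% in DND-41. The part of RNA quality and of library preparation in this difference was not tested.

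Nuclear metabolic genes were mixed. Beside the list counts that follow, 27.2% of all tested genes were higher in MOLT-4 and 26.5% in DND-41, with a median of -0.01. Scaled by total counts, 3343 of the 15083 tested genes were higher in MOLT-4 and 4822 in DND-41, with a median of -0.13. For glycolysis 26 of 29 members passed the filter, 6 were higher in MOLT-4 and 5 in DND-41, and the median log2 fold change was 0.07 (-0.04 when scaled by total counts). The glucose transporter SLC2A3 was higher in DND-41 (35.2, 31.8, 35.3 and 28.0 CPM against 8.57, 8.84, 3.02 and 2.59 CPM, log2 fold change -2.72, SE 0.12, adjusted p = 1.03e-05). The aldolase ALDOC was higher in MOLT-4 (2.11). For one-carbon, serine and amino acid supply 27 of 29 members passed the filter, 9 were higher in MOLT-4 and 9 in DND-41, and the median log2 fold change was -0.08. Scaled by total counts these were 7 and 13. Within the list 3 genes were nearly confined to MOLT-4 among these 8 libraries. CBS, which starts the conversion of homocysteine to cysteine, was at 99.7, 101, 125 and 123 CPM with 3 counts in DND-41, a ratio of 3362, 95% counting interval 1150.1 to 16305. PSAT1, of the serine pathway, was at 95.2, 92.3, 76.6 and 80.7 CPM against 0.187, 0.342, 0.375 and 0.297 CPM (log2 fold change 8.14, SE 0.14, adjusted p = 5.36e-07). ASS1, which makes arginine from citrulline, was at 8.08, 7.65, 1.77 and 2.49 CPM with 2 counts in DND-41, a ratio of 219.7, 95% counting interval 60.4 to 1821. The cystine transporter SLC7A11 was higher in DND-41 (log2 fold change -2.04, SE 0.07, adjusted p = 4.61e-06). Of 30 cell-cycle genes 11 were higher in MOLT-4 and 5 in DND-41 with a median of -0.07, so the count and the median had opposite signs. Scaled by total counts, 9 were higher in MOLT-4 and 10 in DND-41. CCNE1, the cyclin that opens S phase, differed by 1.46 and UHRF1, a partner of the maintenance DNA methyltransferase, by 0.70, with overlapping libraries for UHRF1.

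Markers of other blood lineages checked the labels. Of 13 T-cell markers 12 passed the filter and were read in both lines, CD3D at 425 to 575 CPM in DND-41 and 304 to 368 CPM in MOLT-4 and LCK at 268 to 321 and 515 to 608 CPM. Of the 12, 7 were higher in MOLT-4 and 2 in DND-41, with a median log2 fold change of 0.88, beside 27.2%, 26.5% and -0.01 in all tested genes. Of 13 B-cell markers 4 had no count in DND-41 and 5 none in MOLT-4, and the summed level was 257 to 1092 CPM in DND-41 and 42.7 to 300.4 CPM in MOLT-4. The defining B-cell genes MS4A1 and CD22 were at 0 in both lines and PAX5 had 1 count in all. CD79A, a signalling chain of the B-cell receptor, was at 735, 208, 689 and 177 CPM in DND-41 and 4.56, 4.57, 0.512 and 0.277 CPM in MOLT-4 (log2 fold change -8.38, SE 0.77, adjusted p = 0.000209). EBF1, a B-lineage factor, was at 12.7, 11.1, 13.6 and 11.4 CPM in DND-41 with no count in MOLT-4, at least 338-fold. VPREB1, of the surrogate light chain, was higher in MOLT-4 (4.30), and IGLL1, its partner, was not called (340.2, 79.0, 307 and 67.5 CPM and 270.3, 280.4, 40.2 and 40.1 CPM). The myeloid list was nearly silent, with 11 of 15 members at 0 in DND-41, 6 at 0 in MOLT-4 and a summed level of at most 1.54 CPM. PRF1 (3.69 to 17.8 CPM in DND-41 and 0 to 0.793 CPM in MOLT-4) and NKG7 (2.58 to 29.6 and 0.37 to 1.73 CPM), of cytotoxic cells, were higher in DND-41, while GZMB and KLRD1 were at 0 in both lines. The NK and cytotoxic list summed to 6.91 to 49.2 CPM in DND-41 and 0.97 to 3.12 CPM in MOLT-4, with 5 of 12 members at 0 in each. Of 14 erythroid and megakaryocyte markers 3 passed the filter and were tested by edgeR, KLF1 with adjusted p = 0.289, EPOR with adjusted p = 0.526 and TFRC with 0.952. The list had sums of 223 to 660.3 CPM in DND-41 and 276 to 629.5 CPM in MOLT-4. Its other members did not pass the filter on low counts, so these sums rest mainly on those 3 genes. In DND-41 6 members were at 0 and in MOLT-4 8, and haemoglobin genes had at most 2 counts in a line. PDGFRB, a receptor of stromal cells, was at 32.5, 7.81, 32.1 and 7.80 CPM in DND-41 and 0.397 to 0.595 CPM in MOLT-4 (log2 fold change -5.33, SE 0.75, adjusted p = 0.00131), with CDH1 at 0 in both lines and 2 EPCAM counts in DND-41. The part of other cells in these levels was not tested.

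Beyond these lists, the protein-coding genes named by the size of their fitted difference were read in 1 line, with 0 to 3 counts in the other. A fitted value over a line with no count is not a bound, so it gives no order among them. On the DND-41 side, MDFIC, a transcriptional inhibitor, was at 134, 108, 139 and 107 CPM (at least 3372-fold higher) and DEPDC1 at 53.5, 65.5, 55.6 and 64.5 CPM (at least 1670.4-fold). ABCC8, the sulfonylurea receptor of pancreatic beta cells, was at 68.0, 24.2, 71.7 and 25.4 CPM, at least 1286-fold. FBXL7, PABPC4L, NUDT19, ZNF358, PTGER2, MC5R, ERI2 and MSRB3 also had no count in MOLT-4, with bounds from 592-fold for MSRB3 to 1285-fold for FBXL7. PTGER2, a prostaglandin receptor, and MC5R, a melanocortin receptor, were higher in both DND-41 libraries numbered 1 than in both numbered 2, 51.0, 12.0, 53.4 and 11.3 CPM and 36.9, 9.82, 42.2 and 9.70 CPM. LYRM1, on the opposite strand of ERI2, had 187% of its reads. SKAP2, an adaptor protein, had 1 count in MOLT-4 and 42.0 to 54.2 CPM in DND-41, a ratio of 3988, 95% counting interval 715 to 157539.9.

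On the MOLT-4 side, MLC1 was at 97.7, 98.4, 75.2 and 75.6 CPM, JAKMIP1 at 59.3, 57.0, 100.2 and 99.4 CPM and BEND4 at 48.5, 47.7, 81.8 and 86.6 CPM, all with no count in DND-41. Their folds were at least 2581, 2381 and 1995. GSTM1, a detoxifying transferase whose gene is absent from many human genomes, was at 58.3, 61.4, 70.1 and 72.9 CPM, at least 1969-fold. DSG2, a desmosomal cadherin, was steady over the MOLT-4 libraries at 59.7, 59.3, 60.3 and 57.6 CPM, at least 1771-fold. SLC35F2, EPHA3, CDC42BPA, PLAGL1 and TUSC3 had no count in DND-41 either, with bounds from 1324-fold for TUSC3 to 1735-fold for SLC35F2. GFRA1, the receptor for the neurotrophic factor GDNF, was at 209.9, 204, 155 and 153 CPM with 3 counts in DND-41, a ratio of 5367, 95% counting interval 1836 to 26030.3. CECR5 and ATP9A had 1 count each in DND-41 and at least 79.5 CPM in every MOLT-4 library. The ratio was 8069, 95% counting interval 1448 to 318748 for CECR5 and 7819, 95% counting interval 1403 to 308859 for ATP9A.

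The split of calls between the lines differed by gene type. Over all tested genes 26.5% were higher in DND-41 and 27.2% in MOLT-4, and that split moved with the scaling, as given below. Of 648 lincRNAs tested 209 were higher in DND-41 and 113 in MOLT-4, and of 1021 antisense genes 280 and 129. Protein-coding genes had 3084 and 3504 of 11905, and processed pseudogenes 79 and 144 of 448. Antisense and pseudogene counts can hold reads of the partner or parent gene. H19, an imprinted RNA of the embryo, was at 309, 31.7, 323 and 30.5 CPM in DND-41 and had no count in MOLT-4, at least 4635-fold (adjusted p = 0.00886, edgeR). Both libraries numbered 1 were far above both numbered 2. MTND1P23, a nuclear copy of mitochondrial sequence, was at 602, 543, 505 and 442 CPM in MOLT-4 and 0.169 to 0.469 CPM in DND-41 (log2 fold change 10.67, SE 0.21, adjusted p = 9.19e-07). TP73-AS1 (40.1 to 44.5 CPM in MOLT-4, 3 counts in DND-41) and LRRC37A16P (78.4 to 102 CPM in DND-41, 1 count in MOLT-4) were also near 0 in the other line.

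The direction of the difference depended on the chromosome. On chromosome 18, 59.4% of 219 tested genes were higher in DND-41 and 11.9% in MOLT-4, beside 26.5% and 27.2% of all tested genes. The median log2 fold change was -0.54 there, against -0.01 over all tested genes. The reverse was seen on chromosome 4, where 45.7% of 556 were higher in MOLT-4 and 16.7% in DND-41 (median 0.28). Chromosome 21 (0.38), chromosome 8 (0.27), chromosome 9 (0.21) and chromosome 20 (0.20) had medians above 0 as well. All other nuclear chromosomes lay between -0.14 (chromosome 19) and 0.12 (chromosome 7). The fits of the DMSO-named and the ACBI-1-named libraries gave -0.55 and -0.57 on chromosome 18 and 0.29 and 0.30 on chromosome 4. They share no library. Each fit holds a library of each DND-41 number, and libraries of the same number were close, so the fits are not independent. Scaled by total counts, the medians over 8 libraries were -0.67 on chromosome 18 and 0.16 on chromosome 4, against -0.13 over all tested genes. DNA copy number was not measured, and its part in these medians was not tested.

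**Figure D5:**
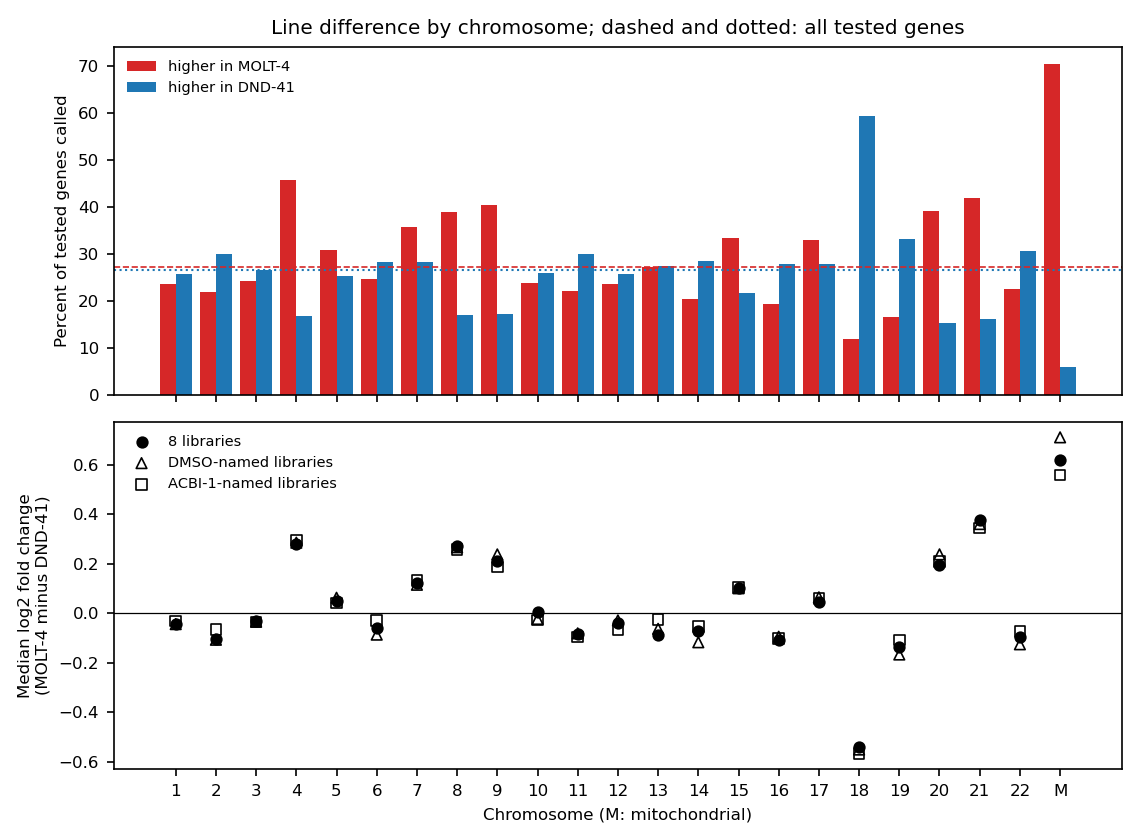
Upper panel, percent of the tested genes of each chromosome that edgeR called higher in MOLT-4 (red) or in DND-41 (blue), with the shares of all tested genes as lines. Lower panel, the median log2 fold change per chromosome in the fit of 8 libraries (filled) and in the fits of the DMSO-named (triangles) and ACBI-1-named (squares) libraries alone; chromosome 18 lies lowest, at -0.54, and the mitochondrial genome highest, at 0.62.

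In the DMSO-named libraries alone, 10834 of 14186 genes separated the lines with 2 libraries each (76.4%), 5468 with MOLT-4 above (38.5%) and 5366 with DND-41 above (37.8%). Order of 2 against 2 libraries is met more easily than order of 4 against 4, so 76.4% cannot be set beside 49.5%. In the DMSO-named libraries edgeR called 5000 genes (35.2%), 2535 higher in MOLT-4 (17.9%) and 2465 in DND-41 (17.4%). Scaled by total counts the split was 2022 and 3129, and the median over all genes moved from -0.01 to -0.18. Over the 8 libraries the same scaling moved that median from -0.01 to -0.13 and gave 3343 genes higher in MOLT-4 and 4822 in DND-41. In the ACBI-1-named libraries 4502 of 14416 were called (31.2%), 2340 higher in MOLT-4 (16.2%) and 2162 in DND-41 (15.0%). Of genes tested in both fits (13839), 1746 were called higher in MOLT-4 in both, 72.0% of those called with DMSO-named and 80.1% of those called with ACBI-1-named libraries. For DND-41 there were 1633, 67.9% and 77.2%. The fits are not independent, since each holds a library of each DND-41 number and those of the same number were close. In the DMSO-named fit TLX3, MME and TRDC had no count in MOLT-4 and ERG and TRBV20-1 none in DND-41, as over all 8. The lines differed by -4.58 for RUNX3, -7.78 for IL7R and 4.49 for TCF7 on the log2 scale. In the ACBI-1-named fit these were -4.08, -8.84 and 4.16. With the DND-41 libraries numbered 1 alone against MOLT-4, 9849 genes separated the lines and 10582 were called, and with those numbered 2 alone 11067 and 11637. This use of the numbers was chosen after seeing the data. Order of 4 against 2 libraries is also met more easily than order of 4 against 4. The DMSO-named count fell to 2038 and 2050 without MOLT-4 DMSO 1 or 2 and was 10721 and 9381 without DND-41 DMSO 1 or 2. The ACBI-1-named count was 1957 and 1945 without MOLT-4 ACBI-1 1 or 2 and 10147 and 9657 without DND-41 ACBI-1 1 or 2.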

How the data were processed

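The members, the gene lists and the rules were chosen with earlier results of these data known. The deposited values are read counts for 63677 Ensembl genes in a table for each line, which the authors made with STAR 2.5.2a on hg19 and featureCounts, per the submitters' processing notes, with no strand setting given in the sources used here. The authors also deposited log2 fold changes from DESeq2 1.12.4, used here for gene names and for the check of DND-41 names. Columns went to groups by the treatment and number in their names, and 0 were unassigned. Both tables were joined by gene identifier. The only coordinates given are those of the stretches before start sites, from RefSeq on build GRCh38.p14. Chromosomes and types came from GENCODE release 29 (another build than hg19), or for 590 genes from the RefSeq symbol. This left out 2663 genes of chromosomes X and Y and 10563 with no chromosome, which held 0.480% to 0.585% of counts.

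Lines were compared by the 2-sided quasi-likelihood test of edgeR 4.0.16 (R 4.3.3) after filterByExpr and TMM scaling. The contrast was the mean of both MOLT-4 groups minus the mean of both DND-41 groups, and DMSO-named and ACBI-1-named libraries were also fitted alone. The threshold was 0.05 after Benjamini-Hochberg adjustment over all genes in the fit, 16047 with 8 libraries. Those include genes of chromosomes X and Y and genes with no chromosome, which were left out after the adjustment. Separation means strict order of the CPM. Named genes were the 14 largest protein-coding differences per direction that were called, separated and at least 10 CPM in the higher line, up to 6 called members per list by size, a fixed set of T-ALL genes, and the T-cell receptor V segment with the most counts per locus and line. Members outside these rules are named for their role, and a few genes are not reported here. Intervals and floors cover counting error only. Opposite-strand shares of 10% or more are given. Alternatives were other scalings and filters, DESeq2 1.42.0, a replicate block, a 2-fold threshold, each library left out, and other groupings of DND-41.

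The replicate numbers are shared between groups. Deviations of same-numbered libraries correlated at 0.79 between the 2 DND-41 groups and at -0.01 to 0.01 between all other groups, so the numbers do not pair the libraries of the lines. On simulated counts the test of 8 libraries recovered 16.4%, 44.8% and 92.4% of genes changed by 1.5-fold, 2-fold and 4-fold. It made 11 false calls in a run of 16047 genes, the changed ones included. The test of DMSO-named libraries recovered 7.46%, 26.9% and 72.7%, with 5 false calls in a run of 15069. The simulated libraries were independent, with the same spread in both lines and no difference between DND-41 numbers. These values therefore need not hold for the real libraries.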

Additional observations from a re-analysis of the deposited data

Results flagged for a closer look

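For 4 of the named genes the lines differed in opposite directions in the DMSO-named and the ACBI-1-named libraries. Both libraries of one line lay above both of the other each time, but no gene of the 4 was called by edgeR in both fits. Of the 13839 genes tested in both fits, 7 were called higher in MOLT-4 with DMSO-named and higher in DND-41 with ACBI-1-named libraries. The reverse was called for 1 gene. The difference between the treatments was not tested, and the treatment names of the DND-41 libraries are in doubt. TRBC2, the beta constant segment, was 2.26 higher in MOLT-4 on the log2 scale in the DMSO-named libraries (adjusted p = 0.00378, edgeR). It differed by -0.64 in the ACBI-1-named libraries (adjusted p = 0.0564, edgeR). NOTCH1 gave 0.72 and -1.67 (adjusted p = 0.153 and 0.0400, edgeR), and CD1A 0.80 and -0.84 (adjusted p = 0.101 and 0.0960, edgeR). TRGV2, a gamma V segment of low level, gave 0.10 and -2.36 (adjusted p = 0.823 and 0.0212, edgeR). Its order in the DMSO-named libraries rests on 0.890 CPM in DND-41 against 0.892 CPM in MOLT-4. In all 4 genes the MOLT-4 libraries named ACBI-1 were the lowest of the 8, at 489.7 and 465 CPM for TRBC2 and at 186 and 173 CPM for NOTCH1.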

How the results depend on the processing

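The count of genes called between the lines over 8 libraries was 8099. Other scalings, filters and DESeq2 gave 7507 to 8165. Against a 2-fold change 2662 passed, and 1907 (of 5000) and 1922 (of 4502) in the DMSO-named and ACBI-1-named fits. Without a low-count filter the ACBI-1-named fit called 2965. With each library left out in turn the count over 8 libraries ranged from 6159 to 8948. In the fits of 2 against 2 libraries the range was wide, 2038 to 10721 for the DMSO-named and 1945 to 10147 for the ACBI-1-named. There the lone library is assumed to vary like the other line. Leaving out a DND-41 library gave 10721 (DMSO 1), 9381 (DMSO 2), 10147 (ACBI-1 1) and 9657 (ACBI-1 2), and leaving out a MOLT-4 library 2038, 2050, 1957 and 1945 in the same order.

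A replicate block on the number gave 8689 calls over 8 libraries, 4846 in the DMSO-named and 4326 in the ACBI-1-named fit. A block within each line gave 10574, DND-41 grouped by number 11546, and line as the only term 7654. Separated genes numbered 6882 to 8507 under all alternatives of scaling, filter and left-out library. With DND-41 numbered 1 or 2 alone, where fewer libraries have to be in order, they numbered 9849 and 11067.

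Of 166 named genes with a fit, 122 kept their direction and their call under every alternative run. The test against 2-fold took the call from 37, and leaving out a MOLT-4 library from 12 to 15. For 4 genes not called over 8 libraries the direction was reversed. CD1A was 0.0044 with RLE factors, 0.0047 with DESeq2, 0.051 with the replicate block, 0.053 with DND-41 grouped by number and 0.23 with line as the only term. Without each library in turn it ran from -0.18 to 0.23, and it passed the test at 0.47 with the block within each line and at 0.46 with DND-41 numbered 1 alone. With the block within each line CD3E was 0.041 and MTAP -0.10. MTAP was -0.13 with DND-41 numbered 1 alone and NOTCH1 0.16 with those numbered 2 alone, both past the threshold. The cause was not tested. Both uses of DND-41 by a single number were added after seeing the data. Depth limits genes of a few counts, whose folds rest on the floor of 3 counts or on wide counting intervals.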
